A study of Canis lupus familiaris with 20 samples.

Results

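Genes that move calcium, sodium, potassium and chloride across the membranes of muscle were examined in dogs with the canine form of Duchenne muscular dystrophy (DMD). They were taken by gene name: the ryanodine and inositol trisphosphate receptors (RYR, ITPR), the calcium pumps (ATP2A, ATP2B), the sodium-potassium ATPase subunits (ATP1A, ATP1B), the calsequestrins (CASQ), every gene whose name begins with CACN, KCN, CLCN, TRPC, TRPV, TRPM, STIM or ORAI or with SCN and a number, and PLN, SLN, PVALB, TRDN, JPH1, JPH2, SRL and SLC8A1. The array carried 121 such genes on 142 of its 42034 probes. Of these, 46 genes on 54 probes were well above background often enough to be tested, among 16008 tested probes.

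Total RNA of muscle from 10 dogs aged 2 years was hybridised to 2-colour arrays of 60-base probes. The groups were 4 affected dogs (disease state DMD), 2 escapers (dogs of the same disease state that are named apart in the labels, a word used in this field for dystrophic dogs with a mild course) and 4 normal dogs. Every dog was hybridised on 2 arrays, with the dyes swapped, against 1 common reference, the muscle RNA of a single normal individual. The labels did not name the muscle, the breed, the mutation or the sex, and did not say how muscle was sampled. Values are log2 ratios of dog over reference, so 0 means the level of that individual and 1 means a level 2 times higher, and the arrays of a dog were averaged to 1 value. Adjusted p-values come from 1 limma fit of the 10 dogs over all tested probes, with Benjamini-Hochberg adjustment. "Dystrophic" means the 4 affected dogs and the 2 escapers together, each weighted equally.

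In a muscle fibre an action potential spreads over the surface and into the transverse tubules, where a voltage-sensing calcium channel opens the ryanodine receptor of the sarcoplasmic reticulum and calcium leaves its store to start contraction. Calcium pumps then return it to the store, calsequestrin holds it there, and parvalbumin buffers it in the cytosol of fast fibres. Sodium channels carry the action potential, chloride and potassium channels restore and steady the resting potential, and the sodium-potassium ATPase keeps the gradients up. Muscle that lacks dystrophin is known for a fragile surface membrane and for disturbed calcium handling.

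The probes of 5 members that the results turn on are shown here. Each value below is a log2 ratio of dog over reference measured at 1 such stretch of transcript. They are written 5′ to 3′ as the array files give them, together with the positions those files list, for which no genome build is named.

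CASQ2, chromosome 17, 56337490 to 56343067, minus strand: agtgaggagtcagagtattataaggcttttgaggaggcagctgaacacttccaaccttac
JPH1, chromosome 29, 25703329 to 25703388, minus strand: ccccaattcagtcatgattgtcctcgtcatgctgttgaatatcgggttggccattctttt
RYR1, chromosome 1, 117469718 to 117469777, minus strand: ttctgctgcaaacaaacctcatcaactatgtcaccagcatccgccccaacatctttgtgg
KCNC4, chromosome 6, 44813352 to 44813411, minus strand: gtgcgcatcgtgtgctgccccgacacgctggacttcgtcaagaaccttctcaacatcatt
PVALB, chromosome 10, 30733553 to 30733612, plus strand: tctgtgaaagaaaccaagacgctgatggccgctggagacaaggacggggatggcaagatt

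The listed CASQ2 span is longer than its probe, so that probe lies on more than 1 block of the genome.

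Affected 1 and escaper 2 stood apart from their groups. In affected 1, 8.90% of all tested probes were more than 2-fold below the mean of the normal dogs and 8.89% were more than 2-fold above it. In escaper 2 these shares were 11.1% and 13.2%, while in the other 4 dystrophic dogs they ran from 0.743% to 2.25% and from 1.45% to 4.92%. Skeletal fibre markers, of which 4 of 8 were measured (DES, TTN, TCAP, MB), averaged −1.18 in affected 1 and −2.90 in escaper 2, against −0.17 to 0.49 in the normal dogs. Fibroblast and matrix markers (10 of 11 measured) averaged −1.39, −0.24, 0.31 and 1.13 in affected dogs 1 to 4 and −0.11 and 2.29 in escapers 1 and 2, against −1.38 to −0.93 in the normal dogs. All dystrophic dogs but affected 1 lay above every normal dog for these markers, and the markers' part in the members' values was not tested. Values without affected 1 and escaper 2 come from a fit chosen after the data had been seen, in which 899 of all probes passed for affected minus normal and 922 for dystrophic minus normal (limma). On the Cy5 array of affected 4, 60.2% of probes were well above background, against 30.5% to 43.6% on the other 19 arrays. Each slide held 2 dogs of 1 group, and both escapers shared 1 slide, so slide and escaper status cannot be told apart. In bulk RNA, fewer cells of a type and less RNA per cell cannot be told apart either.

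The share of genes bright enough to be tested differed between the families, some of which are small. By role, 6 of 7 release and storage genes were tested (85.7%), 4 of 4 genes named as sodium-potassium ATPase subunits, 5 of 9 genes of calcium pumps, exchange and buffering, 6 of 15 voltage-gated calcium channel subunits, 3 of 6 chloride channels, 3 of 9 sodium channel subunits, 17 of 59 potassium channel genes (28.8%) and 1 of 11 store-operated and TRP channel genes. The remaining tested member, TRPC4AP, encodes a protein that binds a TRP channel and is no channel. Over all members 38.0% of probes were tested, against 38.1% of all probes on the array. In a single dog, 34 to 39 of the 121 members were well above background on both arrays in the affected dogs and escapers, and 32 to 44 in the normal dogs.

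**Figure D1:**
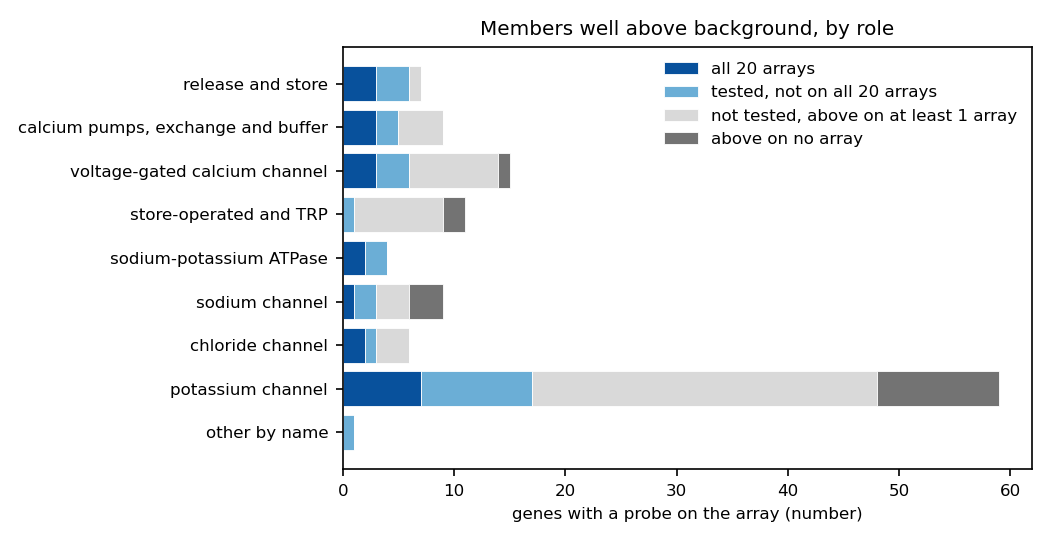
Number of member genes on the array by role, divided into those well above background on all 20 arrays, the other tested ones, those not tested but above background on at least 1 array, and those above background on none. Release and storage genes and genes named as ATPase subunits are nearly all tested, while 42 of 59 potassium channel genes and 10 of 11 store-operated and TRP genes are not.

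Counted array by array, 21 members were well above background on all 20 arrays and 17 on none. On at least 1 array, 104 members passed, but 42 of them did so on exactly 1. That share leaned on the Cy5 array of affected 4, where 93 members were above background, against 34 to 52 on each other array. Without that array, 69 members passed on at least 1 of the remaining 19. Of the 47 member probes above background on exactly 1 array, 38 were above it there.

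Several textbook muscle genes were therefore not measured. The sodium-calcium exchanger SLC8A1, the calcium channel beta subunit CACNB1 and the inward rectifier KCNJ2 were each well above background on 1 array, and KCNJ11, the pore of the ATP-sensitive potassium channel of muscle, on 4. The store-operated candidate TRPC1 was above background on 1 array, TRPC4 and TRPV3 on none, and the calcium-activated cation channel TRPM4 on 5. No probe on the array bore the names CASQ1, JPH2, SRL, SLN, CACNG1, ORAI1, SCN4A or KCNN3. Probes described in the array's own annotation as sarcalumenin, as ryanodine receptor 1, as cardiac calsequestrin and as sodium channel subunit beta-4 were found outside the name rule after the values had been seen, and are given below as such.

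No member passed the adjusted threshold of 0.05 in any of the 4 comparisons. Between affected and normal dogs 0 of 46 members passed, where 0.0187% of all tested probes did; at an unadjusted p under 0.05, 1 member was higher and 4 were lower, where 5.06% and 7.38% of all tested probes were. Between escapers and normal dogs 0 members passed, where 0% of probes did; 2 were higher and 2 lower at the unadjusted threshold, where 9.67% and 8.78% of probes were. Between escapers and affected dogs 0 members passed, where 0% of probes did; 2 were higher and 0 lower at the unadjusted threshold, where 2.95% and 2.26% of probes were. Between all dystrophic and normal dogs 0 members passed, where 0.131% of probes did; 1 was higher and 6 were lower at the unadjusted threshold, where 8.29% and 9.82% of probes were. Leaving out escaper 1, so that escaper 2 stood alone and its spread was taken from the other groups, 15 members and 3920 probes passed between escapers and normal dogs, and 8 members and 1755 probes between escapers and affected dogs (limma). With all dogs, 13.0% of the members against 9.82% of probes were lower in dystrophic dogs at the unadjusted threshold. Higher were 2.17% of the members against 8.29% of probes. These shares stand for only 6 and 1 of 46 members.

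The members leaned downward in the dystrophic dogs by a small amount. Their median log2 difference was −0.19 for affected minus normal, −0.18 for escaper minus normal, −0.14 for escaper minus affected and −0.15 for dystrophic minus normal, where the medians over all tested probes lay between −0.01 and 0.02. Below 0 were 30, 33, 29 and 30 of the 46 members in these comparisons. Leaving out affected 1 and escaper 2 gave medians of −0.05, −0.02, 0.06 and −0.04. The precision differed widely among members: the standard error of the difference between affected and normal dogs was 0.22 at the median, lowest for KCNG4, at 0.12, and highest for ATP2A2. Differences over 2-fold numbered 4, 7, 2 and 5 in these comparisons, and all of them were lower.

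**Figure D2:**
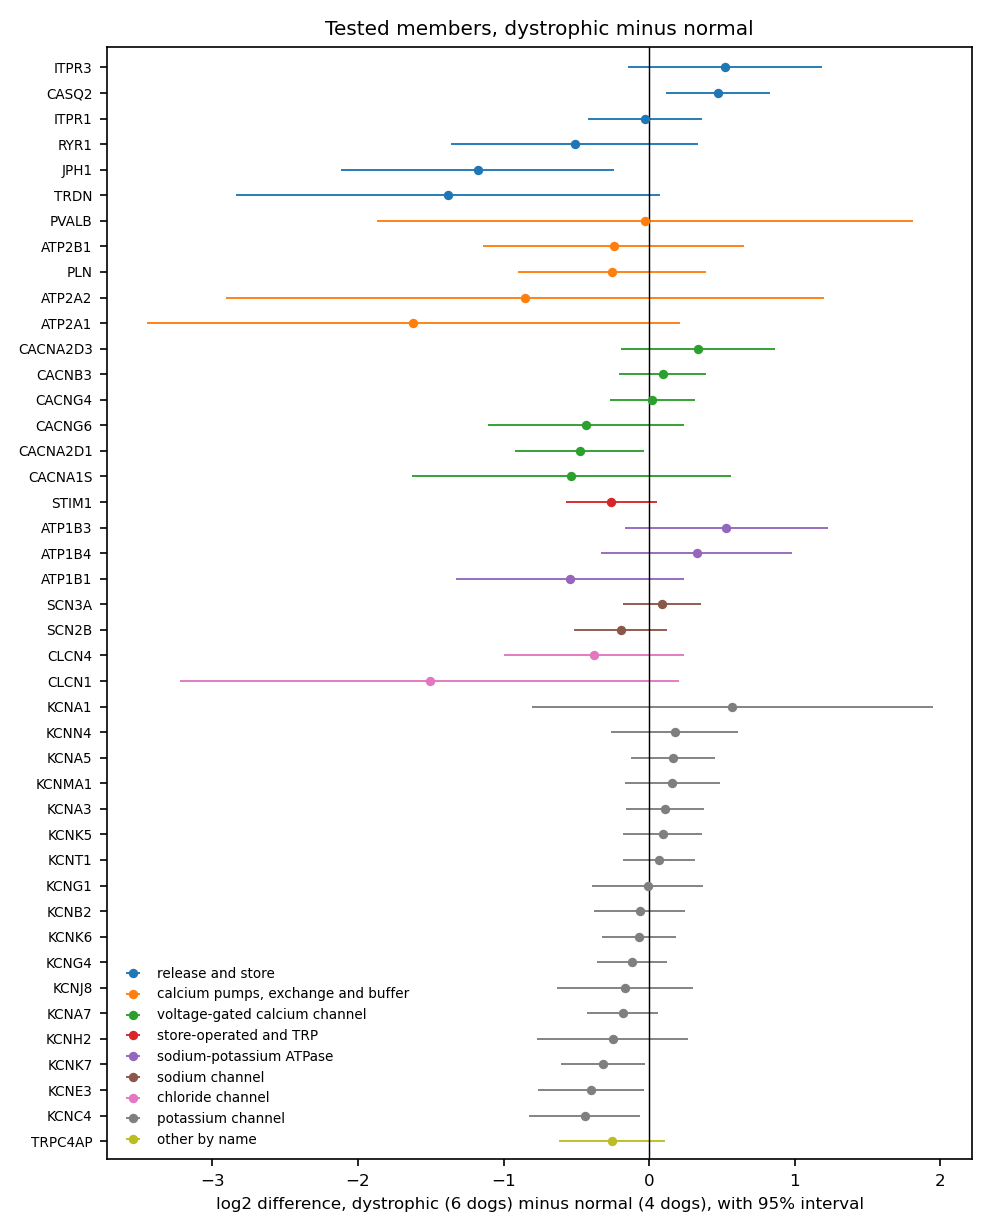
Log2 difference between all dystrophic and normal dogs for tested members, grouped by role, with its 95% interval from the limma fit. Most intervals cross 0; the intervals of JPH1, CACNA2D1, KCNC4, KCNE3 and KCNK7 lie below 0 and that of CASQ2 above it, before adjustment over all probes, and the widest belong to ATP2A2, PVALB, ATP2A1 and CLCN1.

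Among the release and storage genes, JPH1 was lower and CASQ2 higher in most dystrophic dogs, and RYR1 and TRDN were far lower in affected 1 and escaper 2 alone. JPH1 encodes junctophilin, which holds the transverse tubule against the sarcoplasmic reticulum. Its log2 ratio was −1.11, 0.03, 1.09 and −0.04 in affected dogs 1 to 4 and 0.16 and −1.50 in escapers 1 and 2, against 1.16, 1.04, 0.72 and 0.89 in normal dogs 1 to 4. Of the 6 dystrophic dogs 5 lay below every normal dog, and affected 3 lay among them. The difference was −0.96 ± 0.46 (SE) for affected minus normal (limma adjusted p = 0.428), −1.62 ± 0.56 for escaper minus normal (adjusted p = 0.210) and −1.18 ± 0.42 for dystrophic minus normal (adjusted p = 0.206). With affected 1 and escaper 2 left out the last of these was −0.64. With the 20 arrays fitted singly and dog as a block JPH1 passed for dystrophic minus normal (limma adjusted p = 0.0254). In that setting 1059 of all probes passed, against 21 in the fit of 1 value per dog. The arrays of a dog are technical repeats and not further dogs.

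CASQ2, the calsequestrin of cardiac and slow fibres, went the other way. It had log2 ratios of −0.29, −0.39, −0.87 and −0.06 in affected dogs 1 to 4 and −0.47 and −0.67 in escapers 1 and 2, against −1.05, −0.97, −0.89 and −0.81 in normal dogs 1 to 4. The dystrophic dogs other than affected 3 lay above every normal dog. CASQ2 had a difference of 0.53 ± 0.17 (SE) for affected minus normal (limma adjusted p = 0.301), 0.36 ± 0.21 for escaper minus normal (adjusted p = 0.377) and 0.47 ± 0.16 for dystrophic minus normal (adjusted p = 0.188), and it was about as large without affected 1 and escaper 2, at 0.48 (adjusted p = 0.126). On the authors' processed log2 ratios the dystrophic minus normal difference of CASQ2 was 2.09. This probe was well above background on 8 affected and 4 escaper arrays but on only 4 normal arrays. The normal values therefore lie near background, and the size of the difference depends on the processing.

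The array held a second calsequestrin probe, annotated as cardiac calsequestrin on chromosome 17 from 56309365 to 56309424, which the name rule did not take. There the log2 ratios were −0.61, −0.29, −0.79 and 0.19 in affected dogs 1 to 4 and −0.18 and −0.50 in escapers 1 and 2, against −2.47, −1.78, −1.69 and −1.60 in normal dogs 1 to 4. All 6 dystrophic dogs lay above all 4 normal dogs, affected 1 and escaper 2 among them, as at 3.55% of all tested probes. Its difference was 1.51 ± 0.26 (SE) for affected minus normal (limma adjusted p = 0.109), 1.54 ± 0.31 for escaper minus normal (adjusted p = 0.179) and 1.52 ± 0.23 for dystrophic minus normal (adjusted p = 0.0528). Without affected 1 and escaper 2 it was 1.59 for affected minus normal (adjusted p = 0.0164) and 1.62 for dystrophic minus normal (adjusted p = 0.0118). With slide as a random block the cardiac calsequestrin probe passed in each comparison with normal dogs. The limma adjusted p was 0.0245 for affected, 0.0414 for escaper and 0.0103 for dystrophic minus normal. In that setting 114, 522 and 1003 of all probes passed, against 3, 0 and 21 without the block. Each slide held dogs of 1 group, so the block changed the errors and left the differences as they were. It cannot take a slide effect out of a group difference and does not separate slide from group. The passes in that setting are therefore no sign that the difference outlasts a correction for slide. Escapers and affected dogs differed by 0.03 ± 0.31 at this probe (adjusted p = 0.987). Slow fibre markers (5 of 9 measured) averaged −0.91 to 1.44 in the affected dogs, −1.75 and 0.82 in escapers 2 and 1, and −1.25 to 0.60 in the normal dogs, and their part in the calsequestrin values was not tested.

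**Figure D3:**
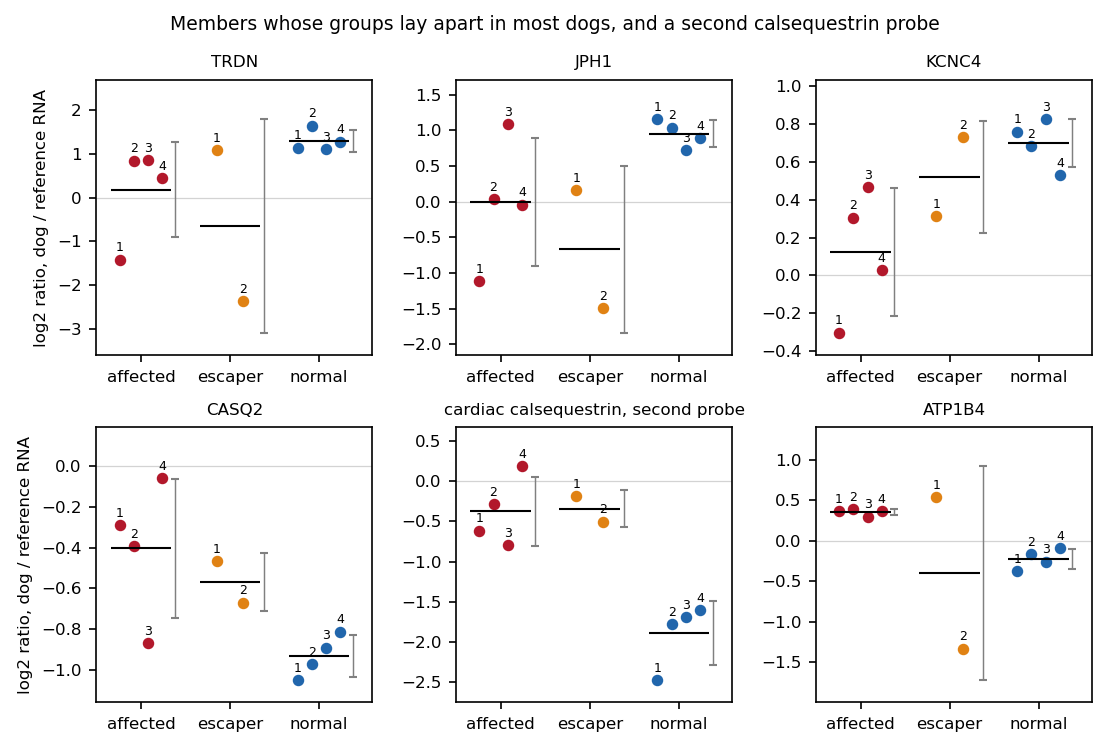
Log2 ratio of dog over reference RNA in each dog (points, numbered by dog) for TRDN, JPH1, KCNC4, CASQ2, a second cardiac calsequestrin probe outside the name rule, and ATP1B4, with the group mean (line) and SD (grey bar) for 4 affected dogs, 2 escapers and 4 normal dogs. At the probes shown, TRDN lies lower and the second calsequestrin higher in all 6 dystrophic dogs than in any normal dog. ATP1B4 separates all dystrophic dogs but escaper 2.

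TRDN encodes triadin, which links calsequestrin to the ryanodine receptor. Its log2 ratio was −1.42, 0.84, 0.85 and 0.44 in affected dogs 1 to 4 and 1.08 and −2.37 in escapers 1 and 2, against 1.13, 1.64, 1.10 and 1.27 in normal dogs 1 to 4. Every dystrophic dog lay below every normal dog, escaper 1 by the least. TRDN was 1 of 2 members of 46 lower without overlap in dystrophic dogs, where 5.04% of all tested probes were, and 0 members were higher without overlap, where 3.55% of probes were. Affected 1 and escaper 2 were 6.51-fold and 12.6-fold below the normal mean. The dystrophic minus normal difference was −1.38 ± 0.65 (SE; limma adjusted p = 0.295), and −0.48 without those dogs (adjusted p = 0.105). A second TRDN probe gave −1.30 (limma adjusted p = 0.368). The remaining one gave −0.04 (adjusted p = 0.968), and its sign was positive, at 0.05, between affected and normal dogs. Dystrophic and normal dogs overlapped at both of these further probes, so the separation holds only at the brightest TRDN probe.

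RYR1, the release channel itself, had log2 ratios of −0.75, −0.09, 1.05 and 0.29 in affected dogs 1 to 4 and 0.49 and −1.19 in escapers 1 and 2, against 0.34 to 0.61 in the normal dogs. Affected 3 was above the normal dogs and escaper 1 was within their range. RYR1 differed by −0.51 ± 0.38 (SE) between dystrophic and normal dogs (limma adjusted p = 0.492), and by −0.04 without affected 1 and escaper 2. The 3 further probes annotated as ryanodine receptor 1 were also lowest in escaper 2, at −3.16, −1.21 and −0.83, against −1.22 to 0.00, 0.20 to 0.36 and −0.04 to 0.27 in the normal dogs. The probe annotated as sarcalumenin, a calcium-binding protein of the store, was −1.03 in affected 1 and −0.52 in escaper 2, against 0.26 to 0.43 in the normal dogs.

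The inositol trisphosphate receptors, release channels found in many cell types, were highest in escaper 2. ITPR3 was 1.38 there, against −0.26 to 0.04 in the affected dogs, −0.44 in escaper 1 and −0.74 to −0.23 in the normal dogs. ITPR1 was 0.44 in escaper 2, while the other 9 dogs lay between −0.65 and −0.04. The escaper minus normal difference of ITPR3 was 0.91 ± 0.40 (SE; limma adjusted p = 0.266), and 0.00 without escaper 2. Endothelial markers (5 of 9 measured) averaged 1.19 in escaper 2, −0.48 to 0.09 in the affected dogs, −0.31 in escaper 1 and −0.08 to 0.15 in the normal dogs, and macrophage markers (5 of 10 measured) averaged 0.95 in escaper 2, −1.05 to −0.02 in the affected dogs, −0.88 in escaper 1 and −1.26 to −0.98 in the normal dogs. Their part in the ITPR values was not tested.

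The calcium pumps of the sarcoplasmic reticulum were among the members with the widest spread over dogs. ATP2A1, the pump of fast fibres, had log2 ratios of −3.36, −0.52, 0.75 and −0.37 in affected dogs 1 to 4 and 0.21 and −3.17 in escapers 1 and 2, against 0.92, 0.06, 0.42 and 0.79 in normal dogs 1 to 4. Affected 1 and escaper 2 were the lowest dogs. ATP2A2, the pump of slow fibres and heart, was −2.33, 1.29, −0.28 and 0.64 in affected dogs 1 to 4 and 0.87 and −3.71 in escapers 1 and 2, against −0.75 to 0.76 in the normal dogs. The groups overlapped for both pumps once affected 1 and escaper 2 were set aside.

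The dystrophic minus normal difference was −1.62 ± 0.82 (SE) for ATP2A1 (limma adjusted p = 0.324) and −0.85 ± 0.92 for ATP2A2 (adjusted p = 0.643). Without affected 1 and escaper 2 these were −0.53 (adjusted p = 0.325) and 0.36 (adjusted p = 0.629), so the sign of ATP2A2 turned. ATP2A1 was saturated on 1 array and ATP2A2 on 3. Fast fibre markers (5 of 10 measured) averaged −1.85 to 0.55 in the affected dogs with affected 1 lowest, −0.97 and 0.89 in escapers 2 and 1, and 0.37 to 0.91 in the normal dogs, and their part in the ATP2A1 values was not tested.

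PLN, the small inhibitor of ATP2A2, differed by −0.25 ± 0.29 (SE) between dystrophic and normal dogs (limma adjusted p = 0.663). ATP2B1, a calcium pump of the surface membrane, differed by −0.24 ± 0.40 (adjusted p = 0.773), and its second probe by −0.22 ± 0.14 (adjusted p = 0.417). The ranges of the dystrophic and normal dogs overlapped for both genes, with normal 3 and 4 above every dystrophic dog for PLN and normal 1 above them for ATP2B1.

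PVALB, the calcium buffer of fast fibres, had the largest single value of any member. Its log2 ratio was −1.08, 1.55, 3.76 and 2.44 in affected dogs 1 to 4 and −0.01 and −0.39 in escapers 1 and 2, against 1.46, 1.59, 1.65 and −0.41 in normal dogs 1 to 4. Affected 3 stood 6.44-fold above the normal mean and affected 1 4.45-fold below it, and normal 4 lay with the escapers. The difference was 0.60 ± 0.90 (SE) for affected minus normal (limma adjusted p = 0.801), 1.51 without affected 1 (adjusted p = 0.171 with escaper 2 also left out) and −0.23 on the authors' processed ratios. PVALB differed by −1.87 ± 1.10 for escaper minus affected (adjusted p = 0.800) and by −1.27 ± 1.10 for escaper minus normal (adjusted p = 0.554).

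**Figure D4:**
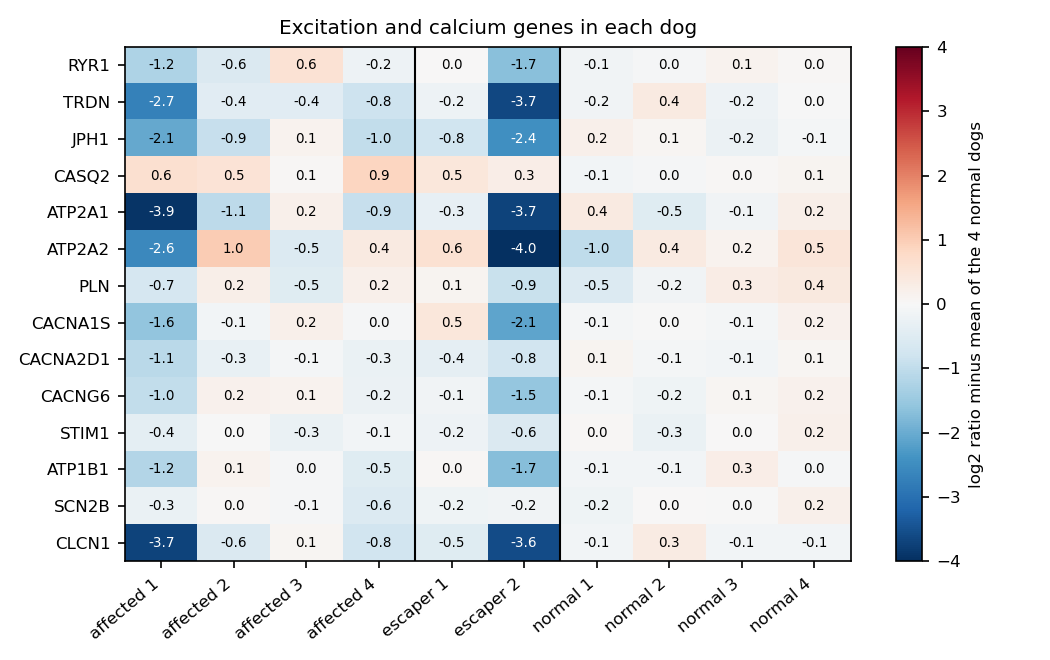
Log2 ratio of 14 excitation and calcium genes in each dog minus the mean of the 4 normal dogs (blue lower, red higher), with affected dogs, escapers and normal dogs from left to right. Affected 1 and escaper 2 are low for RYR1, TRDN, JPH1, both sarcoplasmic reticulum pumps, CACNA1S, ATP1B1 and CLCN1 at once, while CASQ2 is above the normal mean in all 6 dystrophic dogs.

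Many members were low in affected 1 and escaper 2. More than 2-fold below the normal mean were 14 of 46 members in affected 1, where 8.90% of all tested probes were, and 13 in escaper 2, where 11.1% of probes were, against 0 or 1 in each other dog. More than 2-fold above it were 0 members in affected 1 and 3 in escaper 2, where 8.89% and 13.2% of probes were. Affected 1 was the lowest of the 10 dogs for 13 of 46 members (28.3%, against 20.9% of all tested probes) and escaper 2 for 16 (34.8%, against 23.3%). Escaper 2 was also the highest dog for 9 members (19.6%, against 25.9% of probes). By role, the median log2 ratio of the calcium pump and buffer genes minus the normal mean was −2.16 in affected 1 and −1.46 in escaper 2. That of the release and storage genes was −0.62 and −0.70, and that of the calcium channel subunits −0.75 and −0.44, while the potassium channel median was −0.10 and 0.01 and that of the genes named as ATPase subunits was 0.33 and 0.21.

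Of the 6 tested voltage-gated calcium channel subunits, CACNA1S, CACNA2D1 and CACNG6 were lowest in affected 1 and escaper 2. CACNA1S, the pore and voltage sensor of the skeletal muscle channel, had log2 ratios of −1.60, −0.13, 0.19 and −0.06 in affected dogs 1 to 4 and 0.45 and −2.14 in escapers 1 and 2, against −0.10 to 0.14 in the normal dogs. Its dystrophic minus normal difference was −0.53 ± 0.49 (SE; limma adjusted p = 0.581), and 0.13 without affected 1 and escaper 2 (adjusted p = 0.548). CACNA2D1, its alpha-2/delta subunit, was −0.68, 0.11, 0.33 and 0.16 in affected dogs 1 to 4 and 0.05 and −0.37 in escapers 1 and 2, against 0.31 to 0.51 in the normal dogs. All dystrophic dogs but affected 3 lay below the normal dogs, and the difference of CACNA2D1 was −0.48 ± 0.20 (limma adjusted p = 0.250), and −0.25 without affected 1 and escaper 2 (adjusted p = 0.201).

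CACNG6, a gamma subunit, was −0.59 in affected 1 and −1.17 in escaper 2, against 0.21 to 0.55 in the normal dogs. For 2 subunits the probes disagreed. CACNA2D3 had a log2 difference of 0.62 ± 0.32 (SE) for escaper minus normal at its brighter probe (limma adjusted p = 0.316) and −0.11 at the other (adjusted p = 0.767). CACNB3 had 0.26 ± 0.18 (adjusted p = 0.449) and −0.98 ± 0.44 (adjusted p = 0.271). No direction is therefore given for either gene. The remaining subunit, CACNG4, which was named after its values were seen, lay between −0.18 in affected 4 and 0.41 in affected 1.

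STIM1, the calcium sensor of the store that opens store-operated channels, was the only tested member of its family. It was −0.24 to 0.12 in the affected dogs, −0.42 and −0.05 in escapers 2 and 1, and −0.13 to 0.35 in the normal dogs. The groups overlapped, and the dystrophic minus normal difference was −0.26 ± 0.14 (SE; limma adjusted p = 0.349).

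Among the sodium channel members, SCN3A and SCN2B were close to the reference. SCN3A, a pore known from brain, was 0.42 and 0.37 in the escapers, against −0.30 to 0.18 in the affected dogs and −0.02 to 0.15 in the normal dogs. Both escapers were above every other dog, with an escaper minus affected difference of 0.39 ± 0.16 (SE; limma adjusted p = 0.800). The SCN3A probe was well above background on 3 escaper and 5 affected arrays but on only 1 normal array. Its normal values therefore lie near background. SCN2B differed by −0.20 ± 0.14 between dystrophic and normal dogs (adjusted p = 0.485). The pair of probes annotated as sodium channel subunit beta-4, outside the name rule, gave −0.52 ± 0.18 (adjusted p = 0.187) and −0.88 ± 0.24 (adjusted p = 0.148) for dystrophic minus normal.

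CLCN1, the chloride channel that sets most of the resting conductance of muscle and whose loss causes myotonia, was among the most reduced members in affected 1 and escaper 2. Its log2 ratio was −2.51, 0.64, 1.28 and 0.43 in affected dogs 1 to 4 and 0.73 and −2.37 in escapers 1 and 2, against 1.10, 1.53, 1.11 and 1.10 in normal dogs 1 to 4. These values were 13.1-fold and 11.9-fold below the normal mean in affected 1 and escaper 2, and all dystrophic dogs but affected 3 lay below the normal dogs. The dystrophic minus normal difference was −1.51 ± 0.77 (SE; limma adjusted p = 0.327), and −0.44 without affected 1 and escaper 2 (adjusted p = 0.213).

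CLCN4, an exchanger of internal vesicles, was 0.02 to 0.24 in the affected dogs and 0.57 and −1.20 in escapers 1 and 2, against 0.28 to 0.42 in the normal dogs. Its difference was −0.23 ± 0.30 (SE) for affected minus normal (limma adjusted p = 0.766) and its second probe gave −0.59 ± 0.33 (adjusted p = 0.493).

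The sodium-potassium ATPase beta subunits, which chaperone the pump to the membrane, did not move together. ATP1B3 was highest in escaper 2, at 0.80, against −1.08 to −0.09 in the affected dogs, −0.94 in escaper 1 and −1.02 to −0.89 in the normal dogs. ATP1B1, the other widespread beta subunit, was lowest there, at −1.32, with −0.80 in affected 1, against 0.26 to 0.65 in the normal dogs.

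For escaper minus normal the differences were 0.90 ± 0.42 (SE) for ATP1B3 (limma adjusted p = 0.284) and −0.83 ± 0.47 for ATP1B1 (adjusted p = 0.358). Without escaper 2 they were 0.03 and 0.04. Escaper 2 also had the highest matrix, macrophage and endothelial marker means of the 10 dogs, and their part in the ATPase values was not tested.

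ATP1B4 is named for its likeness to these beta subunits, but in placental mammals its protein is known as a muscle protein of the inner nuclear membrane and not as part of the pump. Its log2 ratio was 0.36, 0.39, 0.30 and 0.36 in affected dogs 1 to 4 and 0.53 and −1.33 in escapers 1 and 2, against −0.38, −0.17, −0.26 and −0.09 in normal dogs 1 to 4. The affected dogs lay close together and above every normal dog, escaper 1 lay with them, and escaper 2 lay below all. ATP1B4 differed by 0.58 ± 0.32 (SE) for affected minus normal (limma adjusted p = 0.487), where the error is pooled over the 3 groups and escaper 2 widens it. In the fit without affected 1 and escaper 2, chosen after the data had been seen, it was 0.57, and 0.62 for dystrophic minus normal. Without escaper 2 alone, dystrophic minus normal was 0.61. Escaper 2 is the dog that departs from the pattern, so these fits leave out the value that goes against it.

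ATP1B4 was the 1 member of 46 higher without overlap in affected than in normal dogs, where 5.28% of all tested probes were. Lower without overlap were 4 members, KCNC4, TRDN and CLCN4 among them, where 7.42% of probes were.

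**Figure D5:**
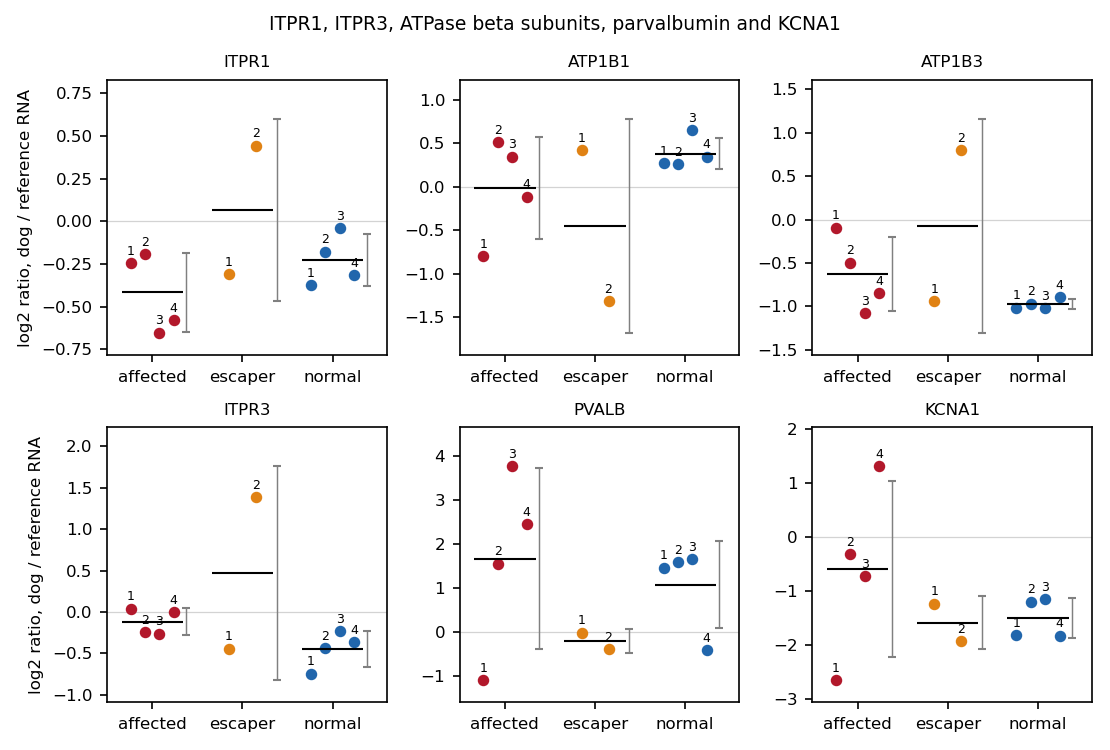
Log2 ratio of dog over reference RNA in each dog (points, numbered by dog) for ITPR1, ATP1B1, ATP1B3, ITPR3, PVALB and KCNA1, with the group mean (line) and SD (grey bar) for 4 affected dogs, 2 escapers and 4 normal dogs. Escaper 2 is the highest dog for ITPR1, ATP1B3 and ITPR3 and the lowest for ATP1B1. The affected dogs spread from −1.08 to 3.76 for PVALB and from −2.65 to 1.31 for KCNA1.

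Potassium channels were the largest family on the array, with a median dystrophic minus normal difference of −0.06 over 17 tested genes, 10 of them lower. Of these 17, 3 were lower at an unadjusted p under 0.05, where 9.82% of all tested probes were, and 0 passed the adjusted threshold (limma). KCNC4 encodes a fast voltage-gated channel pore and KCNE3 a small accessory subunit that is known to assemble with it in skeletal muscle.

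KCNC4 had log2 ratios of −0.30, 0.30, 0.47 and 0.03 in affected dogs 1 to 4 and 0.31 and 0.73 in escapers 1 and 2, against 0.76, 0.68, 0.83 and 0.53 in normal dogs 1 to 4. The affected dogs lay below every normal dog, while escaper 2 lay among the normal dogs. KCNC4 differed by −0.58 ± 0.19 (SE) for affected minus normal, the smallest adjusted p of any member in that comparison (limma adjusted p = 0.293), by −0.18 ± 0.23 for escaper minus normal (adjusted p = 0.697) and by 0.40 ± 0.23 for escaper minus affected (adjusted p = 0.800). Without affected 1 and escaper 2 the affected minus normal difference was −0.43 (adjusted p = 0.0981).

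KCNE3 was −0.70, −0.03, −0.16 and −0.29 in affected dogs 1 to 4 and −0.20 and −0.11 in escapers 1 and 2, against −0.10, 0.13, 0.09 and 0.48 in normal dogs 1 to 4. Affected 2 was the only dystrophic dog above normal 1, the lowest normal dog. The KCNE3 difference was −0.45 ± 0.18 (SE) for affected minus normal (limma adjusted p = 0.368) and −0.40 ± 0.16 for dystrophic minus normal (adjusted p = 0.243). KCNK7, of the two-pore family, differed by −0.36 ± 0.14 (adjusted p = 0.362) and −0.32 ± 0.13 (adjusted p = 0.242), and KCNA7, a voltage-gated pore described in muscle, by −0.25 ± 0.12 for affected minus normal (adjusted p = 0.424). On the authors' processed ratios the affected minus normal differences were larger, at −1.63 for KCNE3 and −1.50 for KCNK7. Each of these probes was well above background on 7 normal arrays but on only 3 affected arrays. On escaper arrays the counts were 2 for KCNE3 and 3 for KCNK7. The affected values therefore lie near background, and the size of these differences depends on the processing.

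KCNA1, a voltage-gated pore known for its place at nerve terminals and axons, spread most among the potassium channels. It was −2.65, −0.32, −0.73 and 1.31 in affected dogs 1 to 4 and −1.24 and −1.94 in escapers 1 and 2, against −1.82, −1.20, −1.15 and −1.83 in normal dogs 1 to 4. Affected 4 was 7.01-fold above the normal mean, and affected 2 and 3 were also above every normal dog, while affected 1 was the lowest dog of all. The difference was 0.90 ± 0.67 (SE) for affected minus normal (limma adjusted p = 0.602) and 1.58 without affected 1, with an adjusted p of 0.0676 in the limma fit that also left out escaper 2. Nerve and Schwann cell markers (3 of 9 measured) averaged 1.55 in affected 1, −0.32 to −0.14 in affected 2 to 4, −0.32 and 0.12 in escapers 1 and 2, and −0.76 to −0.31 in the normal dogs, and their part in the KCNA1 values was not tested.

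KCNJ8, the pore of the ATP-sensitive channel of blood vessel muscle, was 0.82 in escaper 2, against −0.60 to −0.03 in the affected dogs, −0.13 in escaper 1 and −0.21 to 0.28 in the normal dogs. KCNA5, KCNK5, KCNB2, KCNT1, KCNK6, KCNG1, KCNG4, KCNA3, KCNH2 and KCNN4 lay between −0.64 and 0.60 in every dog. KCNA5 had the largest escaper minus normal difference among them apart from KCNN4, at 0.38 ± 0.17 (SE; limma adjusted p = 0.276). KCNMA1, the large-conductance calcium-activated channel, was not well above background on any escaper array, so no fold against the escapers is given.

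Between escapers and affected dogs PVALB had the largest difference of any member, and it was −1.68 without escaper 2. At the unadjusted threshold 2 members, SCN3A among them, were higher in escapers, and adjusted p-values over all members in this comparison ran from 0.800 to 0.996 (limma). Without escaper 2, ATP2A1 differed by 1.09 and TRDN by 0.90, where all dogs gave −0.60 and −0.83. That fit kept affected 1, which was −3.36 for ATP2A1 and −1.42 for TRDN. For ATP2A1 escaper 1 was 0.21, inside the range of affected 2 to 4 (−0.52 to 0.75). For TRDN it was 1.08, against 0.44 to 0.85 in those dogs. The 95% interval of the ATP2A1 difference was −3.06 to 1.85, so differences of over 2-fold in either direction lie inside it.

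Of 43 regulators of muscle calcium outside the name rule 20 were measured, and 0 passed in any of the 4 comparisons (limma). Their median log2 difference was −0.36 for affected minus normal, −0.39 for escaper minus normal, −0.01 for escaper minus affected and −0.41 for dystrophic minus normal. Their mean log2 ratio was −0.59 in affected 1 and −0.72 in escaper 2, but −0.08 to 0.03 in affected 2 to 4 and 0.11 in escaper 1, against −0.10 to 0.27 in the normal dogs. At an unadjusted p under 0.05, 1 was higher and 6 were lower in dystrophic dogs, where 8.29% and 9.82% of all tested probes were.

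HOMER1, a scaffold that ties calcium channels together, was −1.12, −0.58, −0.75 and −0.97 in affected dogs 1 to 4 and −0.77 and −0.47 in escapers 1 and 2, against −0.04, −0.24, −0.37 and −0.25 in normal dogs 1 to 4. All 6 dystrophic dogs lay below the normal dogs, with a difference of −0.55 ± 0.14 (SE; limma adjusted p = 0.138). PPP3CB, a catalytic subunit of the calcium-activated phosphatase calcineurin, also lay lower in all 6, by −1.11 ± 0.31 (adjusted p = 0.156). CALR, the calcium-binding chaperone calreticulin, lay higher in all 6, by 0.92 ± 0.30 (adjusted p = 0.176). These genes were picked from the 20 measured. Over all tested probes, 5.04% were lower and 3.55% higher without overlap in dystrophic dogs.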

How the data were processed

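Muscle RNA of 10 dogs was measured on 20 Agilent 2-colour arrays, and each dog's pair of dye-swapped arrays was averaged to 1 replicate. Per the file headers, the deposited scanner files hold spot intensity read out by Feature Extraction 9.5.3.1. The authors' deposited value table holds log2 ratios of dog over reference that equal those of the processed signals (background-subtracted, spatially detrended and dye-normalized, per the file headers), with the dye swap already turned and no centring (array medians −0.16 to 0.27). How that table was made and the genome build are not given in the sources used here.

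From the mean and background signals, log2 ratios were computed in limma 3.58.1 (R 4.3.3) by normexp background correction (offset 50) and loess within each array, with the 1417 control spots at weight 0 in loess and then left out. Spots marked as outliers were left out. A probe was kept where 2 or more dogs showed it well above background on both of their arrays, as 16130 of 42034 did, and tested where all 10 dogs had a value, as 16008 did. One limma model with 3 groups gave the 4 comparisons, with Benjamini-Hochberg adjustment over all tested probes, and the dystrophic dogs were weighted equally. A gene was represented by its brightest tested probe. The steps were tested on simulated data. The number of arrays limits the precision.

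The members and gene lists were chosen with earlier results of these data known. Named were tested members of a list of core muscle genes, members that passed, the 5 of smallest p in each direction and comparison, those whose probes differed in sign, and the 10 brightest in normal dogs. Some of these are not reported here. Symbols are those of the array files. Alternatives changed the background correction, normalization, source of values, filter, probe rule, block, variance model, dogs in the fit and dye. Replicate numbers only name dogs.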

Additional observations from a re-analysis of the deposited data

Results flagged for a closer look

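In 5 of 84 sets of 4 dogs examined, 1 dog lay far from the other 3 by Dixon's criterion for 4 samples, and chance gives about 1 in 20. ATP2B1, the calcium pump of the surface membrane, was −0.56 in affected 1, where the other affected dogs were 0.40 to 0.59. PVALB, the fast fibre calcium buffer, was −0.41 in normal 4, where the other normal dogs were 1.46 to 1.65. CLCN1, the muscle chloride channel, was 1.53 in normal 2, while the other 3 lay at 1.10 to 1.11. KCNJ8, the ATP-sensitive potassium channel pore of blood vessels, was −0.21 in normal 1, where the others were 0.22 to 0.28. The probe annotated as sarcalumenin was 0.43 in normal 3, where the others were 0.26 to 0.28. All values are log2 ratios of dog over reference. The groups of 2 escapers are too small for this test.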

How the results depend on the processing

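The comparisons were recomputed under 25 other settings, 4 of them chosen after seeing the data (without affected 1 and escaper 2, without the Cy5 array of affected 4, and either dye alone), and 164 of 4038 values of named genes took the opposite sign. The causes were not tested. The median log2 difference of the members stayed below 0 in every setting for affected, escaper and dystrophic against normal dogs. On the deposited table it was −0.48 for escaper minus normal, −0.32 for escaper minus affected and −0.43 for dystrophic minus normal. On processed signals centred per array it was −0.38 for affected minus normal, and −0.53, −0.31 and −0.47 in those comparisons. With no filter on dim probes, 121 members gave −0.013 for affected minus normal and −0.023 for escaper minus normal. Leaving out affected 1 and escaper 2 gave −0.017 for escaper minus normal and 0.064 for escaper minus affected.

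The number of members passing (limma) was 0 in all comparisons with all dogs. With slide as a random block it was 1 for escaper minus normal and 1 for dystrophic minus normal. There 522 and 1003 of 16008 probes passed, against 0 and 21 without the block. Since each slide held dogs of 1 group, the block changed only the errors and is no correction for slide. A further setting took the 20 arrays singly, as technical repeats and not further dogs. There, with dog as a block, the number of members was 2 in both comparisons, JPH1 among them, where 1000 and 1059 probes passed. Without affected 1 and escaper 2 it was 2 for affected minus normal and 2 for dystrophic minus normal, ATP1B4 among them, where 899 and 922 probes passed.

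With single dogs left out, 0 to 15 members passed for escaper minus normal, 0 to 8 for escaper minus affected, 0 to 3 for dystrophic minus normal and 0 for affected minus normal. The highest counts came without escaper 1, where escaper 2 stood alone and was assumed to vary like the other groups. The medians ran from −0.27 without escaper 1 to −0.017 without escaper 2 for escaper minus normal, and from −0.26 to 0.11 for escaper minus affected. Over all probes, 0 to 899 passed for affected minus normal, 0 to 3920 for escaper minus normal, 0 to 1755 for escaper minus affected and 0 to 1420 for dystrophic minus normal across settings. Fitting only the dogs compared does not apply to dystrophic against normal dogs. No paired analysis was possible because replicate numbers were given in accession order and pair no dogs. Dim signal limited the measurements to 46 of 121 members.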
